A study of Homo sapiens with 9 samples.

Results

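Glycolysis and its control by oxygen were followed through 34 genes: the hexokinases, the enzymes that carry glucose to pyruvate, lactate dehydrogenase, the glucose and lactate transporters, the kinases that inhibit pyruvate dehydrogenase, the enzymes that set fructose-2,6-bisphosphate, and the hypoxia-inducible factors (HIF) with their hydroxylases and HIF-responsive genes. They were chosen by gene symbol, and each of the 34 had a row among the 58381 genes of the deposited tables. Expression was measured by RNA-seq with a stranded mRNA library kit in TC-32, an established human Ewing sarcoma cell line whose driver is the EWSR1::FLI1 fusion, and all 9 libraries come from this line. RFP cells carried the lentiviral pLOC vector with red fluorescent protein. ETS1-Low and ETS1-High cells carried pLOC with a synthetic human ETS1 cDNA, at a lower level and at a level comparable with that seen once EWSR1::FLI1 is depleted, respectively. The series asks what ETS1 does to expression while the fusion is still present. There were 3 libraries per group. Transduced cells were selected with puromycin and sorted as single cells, and the design text speaks of single-cell clones for ETS1-High, but the number of clones behind each group is not given. Nothing in the labels says that the 3 libraries of a group came from separate cultures, so p-values measure the spread between libraries, which may be technical, and a difference between clones and an effect of ETS1 cannot be told apart.

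Glycolysis converts glucose to pyruvate in the cytosol, and lactate dehydrogenase reduces pyruvate to lactate, which leaves the cell through monocarboxylate transporters. When oxygen falls, prolyl hydroxylases of the EGLN family stop marking HIF alpha subunits for destruction, and HIF raises transcription of many glycolytic genes, of glucose transporters and of pyruvate dehydrogenase kinases. HIF alpha is set mainly through protein stability, so its mRNA level is only part of its control. Ewing sarcoma cells in culture, like many tumour cells, make lactate from glucose in the presence of oxygen.

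Promoter sequence is shown for 4 members that moved in different ways: PFKP, LDHA and EPAS1, which rose in ETS1-High against RFP, and EGLN3, which fell. Each run is the 250 bases before the RefSeq start of the gene (GRCh38.p14), 5′ to 3′ on the gene's strand. Capitals mark the HIF core, ACGTG or GCGTG, and the ETS core, CCGGAA, on either strand; CACGTG holds the HIF core on both strands and was counted once, as were overlapping matches.
PFKP (chr10:3067720-3067969, plus strand): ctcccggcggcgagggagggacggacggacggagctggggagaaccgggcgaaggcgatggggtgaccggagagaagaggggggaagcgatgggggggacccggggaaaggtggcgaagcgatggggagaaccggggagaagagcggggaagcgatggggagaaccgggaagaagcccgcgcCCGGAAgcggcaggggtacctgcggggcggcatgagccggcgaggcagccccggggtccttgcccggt
LDHA (chr11:18394313-18394562, plus strand): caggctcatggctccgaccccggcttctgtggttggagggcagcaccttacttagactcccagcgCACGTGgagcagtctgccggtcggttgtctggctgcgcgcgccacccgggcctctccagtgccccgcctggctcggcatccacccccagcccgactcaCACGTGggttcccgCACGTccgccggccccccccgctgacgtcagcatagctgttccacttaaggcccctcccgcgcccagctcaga
EPAS1 (chr2:46297157-46297406, plus strand): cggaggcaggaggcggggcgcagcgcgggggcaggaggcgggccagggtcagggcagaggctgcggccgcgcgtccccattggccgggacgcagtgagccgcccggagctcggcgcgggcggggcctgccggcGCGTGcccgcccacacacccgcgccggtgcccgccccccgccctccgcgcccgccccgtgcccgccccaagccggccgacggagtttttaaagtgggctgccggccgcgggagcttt
EGLN3 (chr14:33951075-33951324, minus strand): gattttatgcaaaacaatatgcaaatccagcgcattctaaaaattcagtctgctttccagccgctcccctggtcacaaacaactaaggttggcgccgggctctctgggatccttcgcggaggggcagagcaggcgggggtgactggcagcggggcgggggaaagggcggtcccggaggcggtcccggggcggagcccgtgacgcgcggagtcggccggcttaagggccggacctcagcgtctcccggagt
LDHA had 3 HIF core matches, EPAS1 1, and PFKP and EGLN3 0. PFKP had 1 ETS core match and the other 3 had 0. Among the 31 members with a promoter entry (none for SLC2A3, SLC16A1 and PFKFB2), 19 (61.3%) held the HIF core, against 43.1% of 27305 promoter windows of the same length, and 5 (16.1%) held the ETS core, against 14.8%. The members were chosen in part as hypoxia-linked genes, and the 27305 windows were not matched to them in expression or base content. The differences in share were not tested. A match describes these letters and is not evidence of binding.

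The libraries held 39484704 to 46654734 expected counts. ETS1 itself followed the labels without overlap, at 1.81 to 2.15 CPM (counts scaled to library size, with TMM factors) in RFP, 10.3 to 10.9 in ETS1-Low and 18.2 to 19.7 in ETS1-High; the counts do not separate the vector copy from the endogenous gene. Of 10 Ewing sarcoma markers, 10 had more than 3 counts in every library, with a summed level of 1015 to 1029 FPKM (fragments per kilobase of gene, scaled to library size) in RFP, 1346 to 1360.3 in ETS1-Low and 1398 to 1418 in ETS1-High. Markers of other cell types were present in part: 3 of 6 fibroblast markers and 2 of 6 epithelial markers had more than 3 counts in every library. Summed over all 6, the fibroblast markers had 61.4 to 69.5, 73.3 to 75.1 and 100.04 to 105 FPKM in RFP, ETS1-Low and ETS1-High, with COL1A2 at no more than 3 counts per library. The 6 epithelial markers summed to 64.8 to 66.7, 117 to 123 and 84.2 to 85.5, with KRT19 likewise. Of 6 blood cell markers, 1 had more than 3 counts in every library. All 6 summed to 0.50 to 1.81 FPKM, with CD3E and HBB at no more than 3 counts. The part of these marker levels in the results was not tested. In bulk libraries, fewer cells expressing a gene and less RNA per cell cannot be told apart.

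More of these genes were called lower than higher in ETS1-High against ETS1-Low. The 2 genes that fell furthest in ETS1-High, the glucose transporter SLC2A3 and the prolyl hydroxylase EGLN3, were lower in both ETS1 groups than in RFP, and the phosphofructokinase PFKP and the regulatory enzyme PFKFB3 were higher in both. Of the 34 members, 33 passed the filter on low counts, and the lowest count of any of them in any library was 54. CA9 was the exception. Calls rest on edgeR's quasi-likelihood test, with its p-values adjusted by Benjamini and Hochberg's method (BH) over all genes tested and 0.05 as the threshold. In ETS1-Low against RFP, 16 members were called higher and 10 lower (26 of 33, where 74.1% of all genes tested were called, 37.9% higher and 36.2% lower). On FPKM values (log2 with a pseudocount of 1) the first split became 11 higher and 12 lower in limma. In ETS1-High against RFP, 11 were called higher and 17 lower (28 of 33, against 74.2% of all genes, 37.0% higher and 37.2% lower). In ETS1-High against ETS1-Low, 7 were called higher and 20 lower (27 of 33, against 59.2%, 29.9% higher and 29.3% lower). Library ranges did not overlap for 25, 28 and 27 members in these comparisons, beside 76.0%, 75.5% and 63.2% of all genes. The median log2 ratio of the members was 0.082, -0.077 and -0.20 in these comparisons, beside 0.01, -0.0094 and -4.7e-05 over all genes tested. Large changes were few: at least 2-fold and called were 3, 2 and 0 members, where the shares over all genes were 20.6%, 21.0% and 9.74%. The median absolute log2 ratio of the members was 0.27, 0.31 and 0.26, beside 0.41, 0.40 and 0.25 over all genes tested. In ETS1-High against ETS1-Low the members were thus close to all genes in typical size of change. Together the 34 genes took 1.53% to 1.58% of the expected counts in RFP libraries, 1.59% to 1.66% in ETS1-Low and 1.36% to 1.37% in ETS1-High. Of summed FPKM they took 1.61% to 1.67%, 1.61% to 1.69% and 1.45% to 1.46%, where RFP and ETS1-Low overlapped and ETS1-High was again lower.

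**Figure D1:**
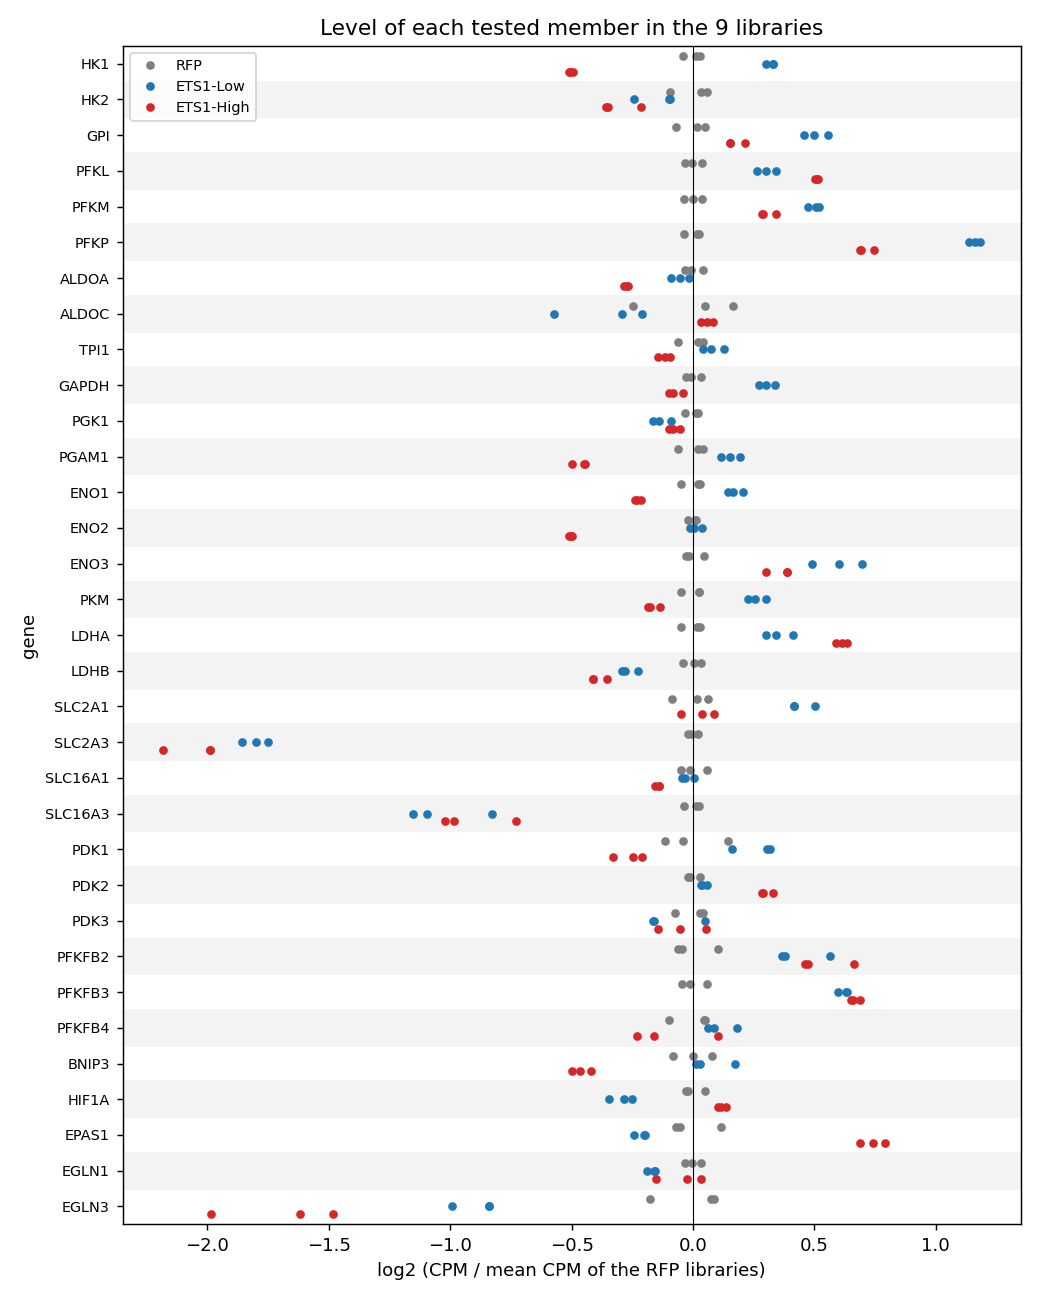
Level of each of the 33 tested members in every library, as log2 of its CPM over the mean CPM of the RFP libraries (x axis), with genes on the y axis in order of their role and 1 point per library. SLC2A3 stands furthest to the left in both ETS1 groups and EGLN3 next to it in ETS1-High, PFKP and EPAS1 furthest to the right in ETS1-Low and ETS1-High respectively, and most enzymes from TPI1 to PKM have their ETS1-Low points right of their ETS1-High points; on FPKM values the small ETS1-Low rise of TPI1 turned to -0.053.

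Glucose enters these cells through facilitative transporters, of which SLC2A1 (GLUT1) is the widely expressed basal form and SLC2A3 (GLUT3) a high-affinity form typical of neurons. SLC2A3 had 73.3, 71.3 and 72.1 CPM in the RFP libraries, 20.7, 19.9 and 21.5 CPM in ETS1-Low and 18.2, 15.9 and 18.2 CPM in ETS1-High. All 6 ETS1 libraries lay far below the RFP libraries, and the ETS1-High libraries lay below those of ETS1-Low. SLC2A3 (chromosome 12, 7919230 to 8019007, minus strand, GENCODE v44 on GRCh38) fell by 75.9% in ETS1-High against RFP, a log2 ratio of -2.05 ± 0.044 (SE; BH-adjusted p = 8.89e-40). In ETS1-Low against RFP its log2 ratio was -1.80 ± 0.043 (SE; BH-adjusted p = 1.53e-37), and the step from ETS1-Low to ETS1-High was -0.25 (BH-adjusted p = 3.03e-05). Its expected counts were not whole in 6 of 9 libraries, as happens where reads match several genes. SLC2A1 had 38.2, 35.6 and 39.4 CPM in the RFP libraries, 53.5, 50.3 and 50.4 CPM in ETS1-Low and 40.1, 38.7 and 36.5 CPM in ETS1-High. SLC2A1 was higher in ETS1-Low than in both other groups, whose libraries overlapped. Its log2 ratio was 0.45 (BH-adjusted p = 1.04e-13) in ETS1-Low against RFP, -0.42 (BH-adjusted p = 1.91e-12) in ETS1-High against ETS1-Low and 0.025 ± 0.042 (SE; BH-adjusted p = 0.597) in ETS1-High against RFP. Lactate leaves through SLC16A1 (MCT1) and SLC16A3 (MCT4), the latter a form of highly glycolytic cells. SLC16A1 had 184 ± 6.89 CPM in RFP, 181 ± 3.24 in ETS1-Low and 166 ± 1.19 in ETS1-High (SD, n = 3), and was lower in ETS1-High than in RFP, at a log2 ratio of -0.15 (BH-adjusted p = 3.13e-05) with no call in ETS1-Low (-0.024, BH-adjusted p = 0.488). SLC16A1 was called lower in ETS1-Low too with upper-quartile scaling (-0.074) and on FPKM values (-0.21). SLC16A3 was scarce and lower in both ETS1 groups, with 2.82 ± 0.0652 CPM in RFP, 1.39 ± 0.172 in ETS1-Low and 1.5 ± 0.171 in ETS1-High (SD, n = 3). Its log2 ratios were -0.91 (BH-adjusted p = 6.81e-07) in ETS1-High and -1.02 (BH-adjusted p = 8.34e-08) in ETS1-Low, with overlapping libraries between the ETS1 groups. SLC16A3 shares exon sequence with CSNK1D on the opposite strand, and whether the counting used strand is not stated. Many other members overlap other genes in exons too. Among them are PFKM (SENP1), TPI1 (SPSB2), PDK2 (SAMD14) and PFKFB2 (YOD1) on the opposite strand. PGK1 (ATP7A) and PFKFB4 (UCN2) overlap genes on the same strand.

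**Figure D2:**
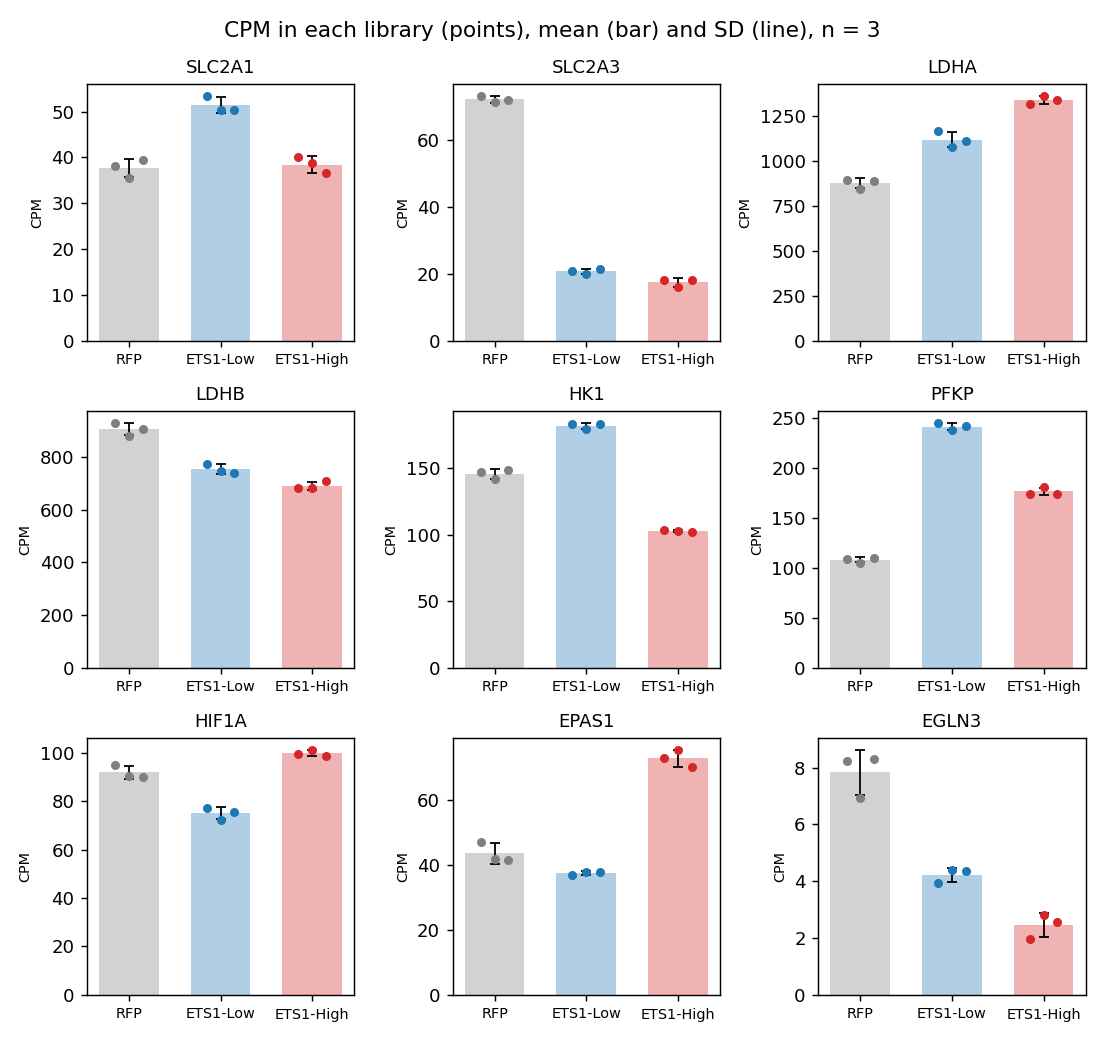
CPM of 9 members (1 panel each, linear y axis from 0) in RFP, ETS1-Low and ETS1-High, with a point per library, the mean as a bar and the SD as a line (n = 3). SLC2A3 and EGLN3 were lower in both ETS1 groups than in RFP, LDHA and LDHB stepped in opposite directions, HK1, PFKP and SLC2A1 peaked in ETS1-Low, and EPAS1 peaked in ETS1-High.

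Hexokinase commits glucose to metabolism in the cell, with HK1 as the constitutive isozyme and HK2 as the form induced in many tumours. HK1 had 147, 142 and 149 CPM in the RFP libraries, 183, 179.5 and 183 CPM in ETS1-Low and 103, 103 and 102 CPM in ETS1-High. The libraries of the 3 groups did not overlap, with ETS1-Low highest and ETS1-High lowest. HK1 (chromosome 10, 69269984 to 69401884, plus strand) fell by 43.5% from ETS1-Low to ETS1-High, a log2 ratio of -0.82 ± 0.03 (SE; BH-adjusted p = 7.75e-29), and its changes against RFP were 0.32 (BH-adjusted p = 7.32e-14) in ETS1-Low and -0.50 (BH-adjusted p = 1.38e-20) in ETS1-High. Genes within 10 Mb on each side of HK1 had a median log2 ratio of 0.35 in ETS1-Low against RFP, as large as the rise of HK1 there, and -0.29 in ETS1-High against ETS1-Low. HK2 had 48.3 ± 2.72 CPM in RFP, 43.7 ± 2.5 in ETS1-Low and 39.1 ± 2.19 in ETS1-High (SD, n = 3). It was called lower than in RFP, at a log2 ratio of -0.31 (BH-adjusted p = 8.4e-07) in ETS1-High and -0.15 (BH-adjusted p = 0.00574) in ETS1-Low. The ETS1-Low libraries of HK2 overlapped with those of RFP and of ETS1-High. Without ETS1-Low replicate 2 the ETS1-Low change was -0.094 (BH-adjusted p = 0.0774).

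Phosphofructokinase, the main control point of glycolysis, rose in all 3 of its isozymes in both ETS1 groups. PFKP had 109, 105 and 109.8 CPM in the RFP libraries, 245, 238 and 242 CPM in ETS1-Low and 174, 181 and 174 CPM in ETS1-High. No PFKP library of an ETS1 group overlapped with RFP, and ETS1-Low lay above ETS1-High. PFKP, the platelet-type isozyme (chromosome 10, 3066333 to 3137718, plus strand; its promoter is printed above), rose by 123% in ETS1-Low against RFP, a log2 ratio of 1.16 ± 0.03 (SE; BH-adjusted p = 7.85e-36), the largest rise of a member in any of the 3 comparisons. In ETS1-High against RFP it rose by 0.71 (BH-adjusted p = 1.65e-26). PFKL, the liver-type isozyme, climbed in the order RFP, ETS1-Low, ETS1-High, with 130.3 ± 3.24 CPM in RFP, 161 ± 4.54 in ETS1-Low and 185 ± 0.797 in ETS1-High (SD, n = 3) and called steps of 0.30 (BH-adjusted p = 1.17e-12) and 0.20 (BH-adjusted p = 6.89e-08). PFKM, the muscle-type isozyme, had 72.4 ± 1.84 CPM in RFP, 102 ± 1.62 in ETS1-Low and 89.5 ± 2.02 in ETS1-High (SD, n = 3), higher than in RFP by 0.50 (BH-adjusted p = 1.85e-19) in ETS1-Low and 0.31 (BH-adjusted p = 6.57e-12) in ETS1-High. GPI, which interconverts glucose-6-phosphate and fructose-6-phosphate, rose by 0.50 (BH-adjusted p = 2.54e-19) in ETS1-Low and 0.17 (BH-adjusted p = 4.41e-06) in ETS1-High. The genes around GPI had local medians of 0.32 and 0.29 in these comparisons, and on FPKM values the ETS1-High change of GPI was 0.054, which was not called.

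Aldolase and triose phosphate isomerase, which follow phosphofructokinase, changed less. ALDOA, the abundant aldolase, was lower in ETS1-High than in RFP, at a log2 ratio of -0.27 (BH-adjusted p = 9.07e-12) and was not called in ETS1-Low (-0.052, BH-adjusted p = 0.104), where other scalings called it lower (DESeq2's size factors, -0.075). The scarce brain-type ALDOC had 5.03 ± 0.714 CPM in RFP, 3.94 ± 0.502 in ETS1-Low and 5.23 ± 0.0954 in ETS1-High (SD, n = 3), lower in ETS1-Low (-0.36, BH-adjusted p = 0.00314) and not called in ETS1-High against RFP (0.058, BH-adjusted p = 0.625). The ALDOC libraries of ETS1-Low and RFP overlapped. Without ETS1-Low replicate 2 the ETS1-Low change of ALDOC was -0.25 (BH-adjusted p = 0.0616). TPI1 was called lower in ETS1-High, at a log2 ratio of -0.12 (BH-adjusted p = 0.000628) and higher in ETS1-Low by 0.082 (BH-adjusted p = 0.0146), with ETS1-Low and RFP libraries that overlapped. That rise of TPI1 was not called without ETS1-Low replicate 1 (0.061) or RFP replicate 2 (0.047), nor with DESeq2's size factors (0.059), and it turned to -0.053 on FPKM values, whose median over all genes lay -0.13 from that of the counts in this comparison and -0.10 in ETS1-High against RFP.

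The enzymes from glyceraldehyde-3-phosphate to pyruvate were lower in ETS1-High than in ETS1-Low with 1 exception: 6 of 7 were called lower, where 29.3% of all genes tested were, and PGK1 was not called (0.054, BH-adjusted p = 0.112). GAPDH, the most abundant member, had 3779.6, 3724 and 3892 CPM in RFP, 4796, 4591 and 4685 in ETS1-Low and 3543, 3695 and 3587 in ETS1-High. ETS1-Low stood above both other groups, and ETS1-High lay just under RFP. GAPDH rose by 23.5% in ETS1-Low (0.30, BH-adjusted p = 1.15e-12) and was lower in ETS1-High, at a log2 ratio of -0.074 (BH-adjusted p = 0.0275); that last call was lost when RFP replicate 3 (-0.056), ETS1-High replicate 1 (-0.057) or ETS1-High replicate 3 (-0.068) was left out. PGAM1 had 572, 541 and 581 CPM in the RFP libraries, 645, 612 and 627 CPM in ETS1-Low and 414, 399.98 and 413 CPM in ETS1-High. The 3 groups of PGAM1, phosphoglycerate mutase, did not overlap, and its rise in ETS1-Low was 0.15 (BH-adjusted p = 1.14e-05), or 0.019 and not called on FPKM values. PGAM1 (chromosome 10, 97426191 to 97433444, plus strand) was lower in ETS1-High than ETS1-Low, at a log2 ratio of -0.62 (BH-adjusted p = 1.42e-23) and than in RFP, at a log2 ratio of -0.46 (BH-adjusted p = 3.8e-19), where the genes around it had local medians of -0.38 and -0.45. ENO1 had 3020.5, 2862 and 3001 CPM in the RFP libraries, 3413, 3271 and 3321 CPM in ETS1-Low and 2510.1, 2555 and 2522 CPM in ETS1-High. ENO1, the widely expressed enolase, followed the same order, with 0.17 (BH-adjusted p = 1.78e-06) in ETS1-Low against RFP and -0.23 (BH-adjusted p = 3.33e-09) in ETS1-High against RFP. The first of these was 0.027 on FPKM values and no longer called, and the local median was 0.25.

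ENO2, the neuronal enolase, had 208, 213 and 213 CPM in RFP, 212, 209.7 and 217 in ETS1-Low and 149, 148 and 149.5 in ETS1-High. The RFP and ETS1-Low libraries overlapped, and all ETS1-High libraries were lower. ENO2 (chromosome 12, 6913745 to 6923698, plus strand) fell in ETS1-High, at a log2 ratio of -0.50 ± 0.029 (SE; BH-adjusted p = 2.91e-21) against RFP, while ETS1-Low against RFP gave 0.01 (BH-adjusted p = 0.759); that value was -0.14 and called lower on FPKM. The non-member genes around ENO2 had a local median of -0.065. The muscle enolase ENO3 was scarce, at 6.39 ± 0.174 CPM in RFP, 9.68 ± 0.684 in ETS1-Low and 8.2 ± 0.282 in ETS1-High (SD, n = 3), and higher than in RFP by 0.60 (BH-adjusted p = 1.89e-09) in ETS1-Low and 0.36 (BH-adjusted p = 7.42e-05) in ETS1-High; it shares exon sequence with PFN1 on the opposite strand. PKM, pyruvate kinase, rose by 0.26 (BH-adjusted p = 9.36e-11) in ETS1-Low and was lower in ETS1-High, at a log2 ratio of -0.17 (BH-adjusted p = 3.41e-06). The local medians around PKM on chromosome 15 were 0.32 and -0.073. PGK1, the first ATP-generating step, was lower, at a log2 ratio of -0.13 (BH-adjusted p = 8.18e-05) in ETS1-Low and -0.077 (BH-adjusted p = 0.0155) in ETS1-High, the latter not called without RFP replicate 3 (-0.067), ETS1-High replicate 1 (-0.064) or ETS1-High replicate 3 (-0.074). ALDOA, TPI1, GAPDH, PGAM1, PKM and LDHA had non-whole expected counts in all 9 libraries, so part of their reads was divided with other genes and their levels are uncertain to that extent.

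Lactate dehydrogenase shifted between its subunits. LDHA had 897, 848 and 889 CPM in the RFP libraries, 1168, 1081 and 1113 CPM in ETS1-Low and 1321, 1364 and 1344 CPM in ETS1-High. LDHA, the subunit that favours lactate formation, rose from RFP to ETS1-Low to ETS1-High with no overlap between any groups. LDHB had 927, 881 and 908 CPM in the RFP libraries, 775, 746 and 739.6 CPM in ETS1-Low and 680.2, 681 and 707 CPM in ETS1-High. LDHB, the subunit that favours lactate oxidation, fell in the same order, also with no overlap. LDHA (chromosome 11, 18394560 to 18408425, plus strand) was 53% above RFP in ETS1-High, a log2 ratio of 0.61 ± 0.031 (SE; BH-adjusted p = 9.71e-24), and 0.35 (BH-adjusted p = 1.23e-14) in ETS1-Low. The genes around LDHA were higher as well, by local medians of 0.24 and 0.33, so that the ETS1-Low rise was close to that of its neighbours. LDHB (chromosome 12, 21635342 to 21757857, minus strand) fell by 23.8% in ETS1-High against RFP, a log2 ratio of -0.39 ± 0.03 (SE; BH-adjusted p = 7.77e-17), and -0.27 (BH-adjusted p = 3.13e-11) in ETS1-Low, with local medians of -0.043 and -0.022.

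Pyruvate dehydrogenase kinases inactivate pyruvate dehydrogenase in the mitochondrial matrix and so limit the conversion of pyruvate to acetyl-CoA, and PDK1 is a known HIF target. PDK1 had 14.6, 17.5 and 15.3 CPM in the RFP libraries, 19.7, 19.5 and 17.7 CPM in ETS1-Low and 13.6, 12.5 and 13.3 CPM in ETS1-High. The ETS1-Low libraries were above those of RFP and the ETS1-High libraries below. PDK1 changed by 0.26 (BH-adjusted p = 0.000212) in ETS1-Low (not called on FPKM values, at 0.078) and -0.26 (BH-adjusted p = 0.00034) in ETS1-High against RFP (-0.23 and not called on log2(FPKM + 1)), and by -0.53 ± 0.065 (SE; BH-adjusted p = 9.4e-10) in ETS1-High against ETS1-Low. Around PDK1 the local medians were 0.35, 0.55 and 0.21, so in ETS1-High PDK1 was lower where its neighbours were higher. PDK2 rose from RFP to ETS1-High by 0.30 (BH-adjusted p = 8.16e-07), with 17.8 ± 0.316 CPM in RFP, 18.4 ± 0.172 in ETS1-Low and 22 ± 0.363 in ETS1-High (SD, n = 3). PDK3 was not called in any of the 3 comparisons, with log2 ratios of -0.091, -0.048 and 0.044 (SE 0.10 each) in ETS1-Low against RFP, ETS1-High against RFP and ETS1-High against ETS1-Low. The PFKFB enzymes make and break fructose-2,6-bisphosphate, the strongest activator of phosphofructokinase. PFKFB3 had 162, 154 and 151 CPM in the RFP libraries, 242, 236 and 241 CPM in ETS1-Low and 251, 246 and 244 CPM in ETS1-High. All ETS1 libraries of PFKFB3 lay above all RFP libraries, and those of ETS1-High just above those of ETS1-Low. PFKFB3 (chromosome 10, 6144934 to 6254644, plus strand), the isozyme with the highest kinase to phosphatase activity, rose by 53.8% in ETS1-Low (0.62, BH-adjusted p = 2.83e-24) and 58.5% in ETS1-High (0.66, BH-adjusted p = 1.47e-25), with 0.044 (BH-adjusted p = 0.208) between the ETS1 groups and an SE of 0.03. PFKFB2 rose in both ETS1 groups by 0.44 (BH-adjusted p = 3.65e-05) in ETS1-Low and 0.54 (BH-adjusted p = 9.16e-07) in ETS1-High, from a low level, 4.75 ± 0.301 CPM in RFP (SD, n = 3), and neither rise was called on FPKM values. PFKFB4 was not called in the 3 comparisons, its largest difference being -0.20 (BH-adjusted p = 0.0531) in ETS1-High against ETS1-Low, which was called with upper-quartile scaling (-0.21) and without ETS1-High replicate 1 (-0.30). In ETS1-High against RFP PFKFB4 was at -0.095 (BH-adjusted p = 0.351), but at -0.33 on log2(FPKM + 1) and -0.46 on log2(FPKM + 0.1), where it was called lower.

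HIF1A and EPAS1 encode the oxygen-regulated alpha subunits of HIF. EPAS1 had 47.3, 42 and 41.6 CPM in the RFP libraries, 36.8, 38 and 38 CPM in ETS1-Low and 73, 75.4 and 70.3 CPM in ETS1-High. ETS1-High lay above both other groups and ETS1-Low was the lowest. EPAS1 (HIF-2 alpha; chromosome 2, 46293667 to 46386697, plus strand) was 67.2% above RFP in ETS1-High, a log2 ratio of 0.74 ± 0.04 (SE; BH-adjusted p = 9.6e-21), and fell by 13.8% in ETS1-Low (-0.21, BH-adjusted p = 2.13e-05). From ETS1-Low to ETS1-High it rose by 0.95 ± 0.041 (SE; BH-adjusted p = 1.11e-23), where the local median was -0.061. HIF1A (HIF-1 alpha) had 95, 90.5 and 90.1 CPM in RFP, 77.2, 72.3 and 75.5 in ETS1-Low and 99.6, 101 and 98.5 in ETS1-High. Its order was the same as that of EPAS1, with smaller steps. HIF1A was lower in ETS1-Low, at a log2 ratio of -0.29 (BH-adjusted p = 3.6e-11) and higher in ETS1-High by 0.12 (BH-adjusted p = 0.00105); the latter was not called with upper-quartile scaling (0.058) or on FPKM values (0.0084). Exons of HIF1A overlap antisense genes.

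EGLN3, a prolyl hydroxylase that HIF itself induces, had 8.25, 6.93 and 8.32 CPM in RFP, 3.94, 4.38 and 4.37 in ETS1-Low and 1.98, 2.8 and 2.55 in ETS1-High. It fell in the order RFP, ETS1-Low, ETS1-High with no overlap between groups. EGLN3 (chromosome 14, 33924227 to 34462774, minus strand) fell by 68.6% from RFP to ETS1-High, a log2 ratio of -1.67 ± 0.11 (SE; BH-adjusted p = 3.72e-19), and -0.89 (BH-adjusted p = 5.4e-11) in ETS1-Low, against local medians of 0.16 and 0.039. EGLN1, the main oxygen-sensing hydroxylase, was lower in ETS1-Low, at a log2 ratio of -0.17 (BH-adjusted p = 0.00195) and not called in ETS1-High (-0.043, BH-adjusted p = 0.429); in ETS1-High against ETS1-Low it was higher by 0.13 (BH-adjusted p = 0.0266). On FPKM values neither EGLN1 call held (-0.26 and 0.0098), and the second was also lost without ETS1-Low replicate 2 (0.12), ETS1-High replicate 2 (0.087) or ETS1-High replicate 3 (0.12). The HIF-responsive mitophagy gene BNIP3 had 57.4, 60.7 and 64.1 CPM in RFP, 68.5, 61.2 and 62 in ETS1-Low and 43, 44 and 45.4 in ETS1-High. All ETS1-High libraries were lower than all others, while ETS1-Low and RFP overlapped. BNIP3 (chromosome 10, 131967684 to 131981967, minus strand) fell in ETS1-High, at a log2 ratio of -0.46 (BH-adjusted p = 8.07e-12) against RFP, and its neighbours by a local median of -0.36. In ETS1-Low against RFP BNIP3 was at 0.071 (BH-adjusted p = 0.117), called only when RFP replicate 3 (0.11) or ETS1-Low replicate 2 (0.11) was left out. CA9, a carbonic anhydrase widely used as a marker of HIF activity, had 0 to 3 counts per library and was not tested. Its level was not above the floor of 3 counts in any group, so no fold change is given.

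Because FPKM is scaled to gene length, the isozymes of a family could be set side by side within a library. The share of LDHA in the summed FPKM of LDHA and LDHB was 47.3% ± 0.405 in RFP, 57.9% ± 0.625 in ETS1-Low and 64.2% ± 1.31 in ETS1-High (SD, n = 3), so LDHB was the larger part in RFP and LDHA in both ETS1 groups. SLC2A1 made up 44% ± 1.84 of the summed SLC2A1 and SLC2A3 in RFP, 77% ± 2.24 in ETS1-Low and 76.6% ± 0.79 in ETS1-High. In RFP SLC2A3 was thus the larger of the pair, and the ETS1 groups overlapped with each other. SLC2A1 itself had 19.5, 24.7 and 18.2 FPKM in RFP, ETS1-Low and ETS1-High, and SLC2A3 had 24.8, 7.36 and 5.57. In ETS1-High the share was thus higher than in RFP without a rise of SLC2A1. EGLN1 rose in its share of EGLN1 and EGLN3 from 66.4% ± 1.24 to 75.8% ± 2.29 and 81.8% ± 2.22. EGLN1 itself did not rise, at 6.98, 5.64 and 5.77 FPKM in RFP, ETS1-Low and ETS1-High, while EGLN3 had 3.52, 1.80 and 1.27. This pair leaves out EGLN2, which had 27.2, 33.8 and 40.5 FPKM, so it is not a share of all EGLN mRNA. HIF1A took 75.9% ± 0.848 of the summed HIF1A and EPAS1 in RFP and 75.9% ± 0.624 in ETS1-Low, which overlapped, but 67.8% ± 0.445 in ETS1-High. Within phosphofructokinase the share of PFKP was 39.6% ± 0.584, 52% ± 1.11 and 42.5% ± 0.829 in RFP, ETS1-Low and ETS1-High. HK1 was the main hexokinase throughout, at 83% ± 0.258, 86.7% ± 0.37 and 80.8% ± 0.958. PDK2 was the main pyruvate dehydrogenase kinase of the 3, at 65.1% ± 1.44, 65.4% ± 3.32 and 72.1% ± 2.47. Among the members of the other families, a single gene dominated in each library. The mean share over groups was at least 99.4% for ALDOA, 94.1% for ENO1, 96.7% for SLC16A1 and 92.2% for PFKFB3. SLC16A1 was set beside SLC16A3 alone, at 1.84, 0.79 and 0.92 FPKM in RFP, ETS1-Low and ETS1-High. That pair leaves out SLC16A7, at 1.39, 0.58 and 4.03 FPKM, so it is not a share of all monocarboxylate transporter mRNA. With 3 libraries against 3, the 2-sided exact permutation test cannot go below p = 0.1; 45 of 57 tests of shares reached it, and the smallest p adjusted over the 57 tests was 0.127, so no difference in share passed 0.05.

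**Figure D3:**
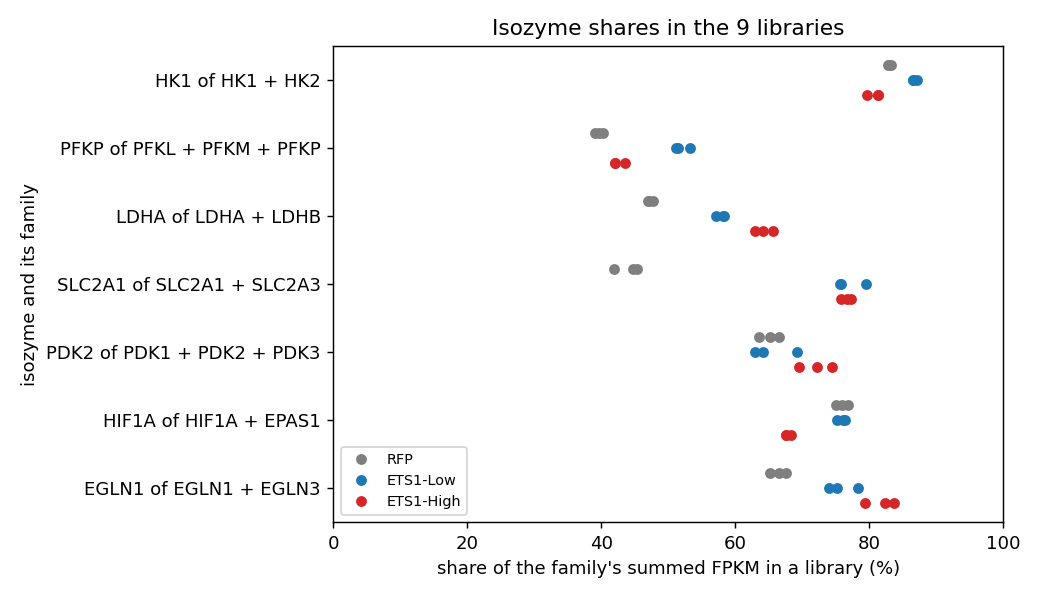
Share of an isozyme in the summed FPKM of its family (x axis, percent) in each of the 9 libraries, for 7 families (y axis), with 1 point per library and colour by group. The LDHA and EGLN1 shares step from RFP to ETS1-Low to ETS1-High, the SLC2A1 share is higher in both ETS1 groups than in RFP, and the HIF1A share is lower in ETS1-High alone.

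Fold changes ran together along parts of the genome in these libraries, so each member was set beside the genes within 10 Mb on each side of it. HK1, PFKP, PGAM1, PFKFB3 and BNIP3 lie on chromosome 10, where 459 expressed genes had a median log2 ratio of -0.31 in ETS1-High against ETS1-Low. Of these 5, HK1, PGAM1, BNIP3 and PFKP were lower in that comparison (-0.82, -0.62, -0.53 and -0.45) and PFKFB3 was at 0.044. After the local median was subtracted they were at -0.54, -0.24, -0.10, -0.23 and 0.31. PKM went from -0.43 to -0.072 and ENO1 from -0.40 to -0.13. GAPDH and ENO2, with local medians of -0.045 and -0.048 on chromosome 12, kept -0.33 and -0.47. Over the 33 tested members the median in this comparison was -0.20 before and -0.13 after subtraction. Among called members the sign turned for 1 of 27 here (SLC16A1), for 1 of 28 in ETS1-High against RFP (GPI) and for 4 of 26 in ETS1-Low against RFP (ENO1, HK1, PDK1 and PKM). In ETS1-High against RFP, SLC2A3, EGLN3, PFKP and EPAS1 were at -1.99, -1.83, 0.81 and 0.46 after subtraction. Further from their neighbours than EPAS1 were also SLC16A3 (-0.98), PFKFB3 (0.83), PDK1 (-0.82), PFKFB2 (0.72), HK2 (-0.63) and HK1 (-0.62). These values have no test.

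**Figure D4:**
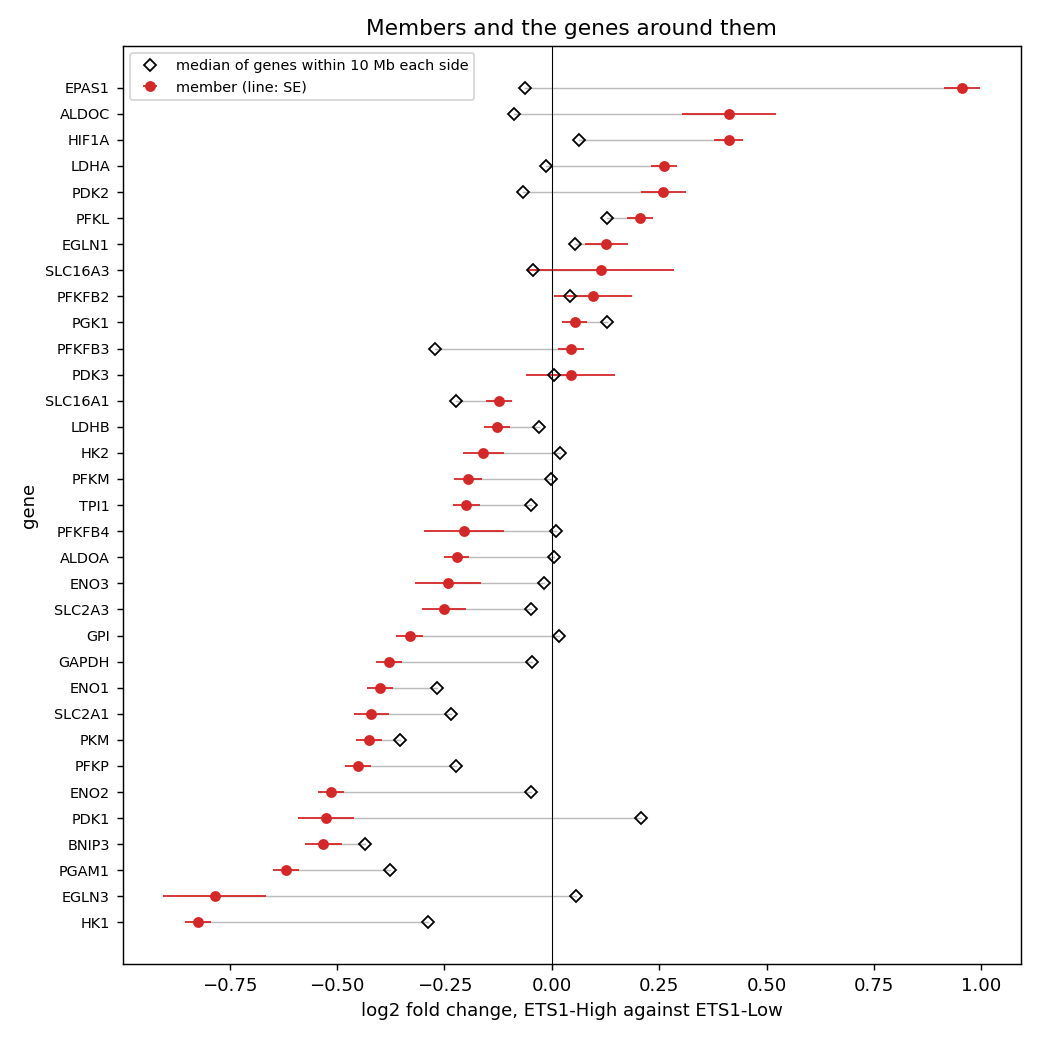
Log2 fold change of each tested member in ETS1-High against ETS1-Low (filled points with the SE as a line) beside the median of the expressed genes within 10 Mb on each side (open diamonds), ordered by the member's value. HK1 has the lowest value (-0.82) and EPAS1 the highest (0.95), and the diamonds of PGAM1, BNIP3 and PKM lie at -0.38, -0.43 and -0.35.

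Genes around the same pathway, from lists of general knowledge, were read from the same fit. Over all genes tested, the shares called were 74.1% in ETS1-Low against RFP, made up of 37.9% that rose and 36.2% that fell, and 74.2% for ETS1-High, made up of 37.0% and 37.2%. Of the pentose phosphate pathway, which branches from glucose-6-phosphate, 7 of 8 genes were called higher and 1 lower in ETS1-Low against RFP (median 0.48), and 4 higher and 3 lower in ETS1-High (median 0.27). TALDO1 and RPE, of the non-oxidative branch, were higher in ETS1-High by 0.65 and 0.58, where their neighbours were higher by 0.31 and 0.58. Of the other glucose and lactate transport genes, 1 of 10 was called higher and 7 lower in ETS1-High against RFP, beside 37.0% and 37.2% of all genes. The one that was higher, SLC16A7 (MCT2, a high-affinity monocarboxylate transporter), had 9.81 ± 0.396 CPM in RFP, 4.87 ± 0.325 in ETS1-Low and 25.8 ± 0.906 in ETS1-High (SD, n = 3), with 1.40 (BH-adjusted p = 4.79e-26) in ETS1-High and -1.01 (BH-adjusted p = 5.63e-17) in ETS1-Low. The fructose transporter SLC2A5 and SLC2A12 fell in ETS1-High by 0.97 and 0.79 on the log2 scale.

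Among the other HIF subunits and regulators, 3 of 11 were called higher and 6 lower in ETS1-High against RFP, and 4 and 7 in ETS1-Low; over all genes the shares were 37.0% and 37.2% in ETS1-High and 37.9% and 36.2% in ETS1-Low. HIF3A, the remaining HIF alpha subunit gene, had 5.98 ± 0.359 CPM in RFP, 4.15 ± 0.103 in ETS1-Low and 17.3 ± 1.23 in ETS1-High (SD, n = 3), the same order as EPAS1 and HIF1A, with 1.53 (BH-adjusted p = 1.92e-24) in ETS1-High and -0.53 (BH-adjusted p = 7.09e-07) in ETS1-Low. EGLN2, the remaining EGLN hydroxylase, rose by 0.47 (BH-adjusted p = 9.44e-18) in ETS1-Low and 0.69 (BH-adjusted p = 1.28e-24) in ETS1-High, with local medians of 0.42 and 0.35 and non-whole counts in 8 of 9 libraries. Other HIF-responsive genes split between the directions much as all genes did: 12 of 26 were called higher and 11 lower in ETS1-High, and 13 and 10 in ETS1-Low, with medians of 0.053 and 0.17. CA12, a carbonic anhydrase, went from 6.98 ± 0.222 CPM in RFP to 69.7 ± 2.27 in ETS1-Low and 21.4 ± 1.71 in ETS1-High (SD, n = 3). ANGPTL4, a secreted lipase inhibitor, rose by 2.07 (BH-adjusted p = 5.53e-27) in ETS1-Low and 2.05 (BH-adjusted p = 7.35e-27) in ETS1-High, and PLOD2, a collagen lysyl hydroxylase, fell from 10.1 ± 0.207 CPM to 0.203 ± 0.0732 in ETS1-Low and 0.818 ± 0.0842 in ETS1-High.

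In gluconeogenesis and glycogen metabolism, 8 of 16 genes were called higher and 5 lower in ETS1-High, and 7 and 2 in ETS1-Low, beside 74.2% and 74.1% of all genes called in either direction. PHKA1, a regulatory subunit of phosphorylase kinase, had 23.2 ± 0.683 CPM in RFP, 20 ± 0.461 in ETS1-Low and 1.52 ± 0.0753 in ETS1-High (SD, n = 3), a log2 ratio of -3.94 ± 0.082 (SE; BH-adjusted p = 2.23e-40) in ETS1-High, with non-whole counts in 8 of 9 libraries. G6PC3, a glucose-6-phosphatase, fell by 0.87 in ETS1-High and 0.71 in ETS1-Low on the log2 scale, and PCK2, the mitochondrial phosphoenolpyruvate carboxykinase, was at -0.78 (BH-adjusted p = 7.05e-10) and 0.048 (BH-adjusted p = 0.64). For pyruvate entry into mitochondria and its oxidation there the counts were 3 higher and 5 lower of 10 in ETS1-High, and 5 and 3 in ETS1-Low, with MPC1, a subunit of the mitochondrial pyruvate carrier, lower, at a log2 ratio of -0.39 (BH-adjusted p = 4.79e-10) and -0.51 (BH-adjusted p = 3.23e-13). PDP1, a phosphatase that reverses the pyruvate dehydrogenase kinases, was at -0.41 in ETS1-High, and PDHX, a component of the pyruvate dehydrogenase complex, at 0.33 beside a local median of 0.31. The list of other glycolysis and fermentation genes had 7 of 18 genes above the filter, with 2 higher and 5 lower in ETS1-High. MINPP1, PGAM5 and ADPGK, the ADP-dependent glucokinase, were at -0.48, 0.46 and -0.30 there. The genes around MINPP1 on chromosome 10 were at -0.50. PGAM5, among the 2 called higher, shares its name with the phosphoglycerate mutases but is a mitochondrial protein phosphatase. Its rise is thus not that of a glycolytic enzyme.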

How the data were processed

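The authors deposited a table of expected counts and a table of FPKM values per gene, both from RSEM per the table titles; FPKM values were scaled by the authors to gene length and library size. Between 8.998% and 10.3% of the 58381 gene rows per library held an expected count that was not whole. That share includes rows at 0, and 26816 genes were at 0 in every library, so it is larger among detected genes. The submitters' processing notes name cutadapt 4.4, STAR 2.7.3, featureCounts, Subread 2.0.3 and limma 3.38.3 and the build GRCh38, with no roles; the RSEM version, the annotation and use of strand are not given in the sources used here. In the table headers an L before the replicate number was taken for ETS1-Low, an H for ETS1-High, and 0 columns were left without a library.

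Expected counts were rounded and tested with edgeR 4.0.16 (R 4.3.3; TMM, filterByExpr, robust quasi-likelihood fit of all 9 libraries on group), with Benjamini-Hochberg adjustment over the 17235 genes tested. The code was tested on simulated data. Positions are from GENCODE v44 (found for 99.2% of genes tested); local medians used non-member genes with a mean log2 CPM above 1 and at least 20 per window, a check chosen with earlier results known. Replicate pairs differed beyond sampling noise, with a chi-square per gene of 2.66 to 5.19, so each library counted once. Alternatives were other scalings, DESeq2 1.42.0, other filters, a replicate block, pairwise fits, single libraries left out, and limma 3.58.1 on log2(FPKM + 1) or log2(FPKM + 0.1). The members and lists were chosen with earlier results of these data known. All members are accounted for; from each related list the 3 called genes with the largest change in ETS1-High against RFP and a mean of at least 100 counts were named, except for a gene of the pentose phosphate list that is not reported here. No molecular identifiers are named in the labels, so the floor of 3 counts covers counting error only.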

Additional observations from a re-analysis of the deposited data

Results flagged for a closer look

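Against RFP, 23 members were called in both ETS1 groups, and 9 of them were called in opposite directions in ETS1-Low and ETS1-High; over all genes tested, 1104 of 10713 genes called in both (10.3%) were. These comparisons share the RFP libraries, so the difference itself was read from ETS1-High against ETS1-Low, where the edgeR test called all 9. The 9 were picked by opposite changes against RFP, so these calls follow largely from that choice and add no separate support. Higher in ETS1-Low and lower in ETS1-High than in RFP were the enzymes HK1, TPI1, GAPDH, PGAM1, ENO1 and PKM and the kinase PDK1, with log2 ratios in ETS1-High against ETS1-Low of -0.82 for HK1, -0.20 for TPI1, -0.38 for GAPDH, -0.62 for PGAM1, -0.40 for ENO1, -0.43 for PKM and -0.53 for PDK1. Lower in ETS1-Low and higher in ETS1-High were the HIF alpha subunits HIF1A (0.41) and EPAS1 (0.95). On FPKM values TPI1, PGAM1, ENO1 and PDK1 were not called in ETS1-Low against RFP, nor HIF1A in ETS1-High against RFP. The ETS1-Low rise of TPI1 lost its call or reversed in 9 of 19 alternatives, and its ETS1-Low and RFP libraries overlapped. GAPDH was not called in ETS1-High against RFP with no filter on low counts, nor without RFP replicate 3 or ETS1-High replicate 1 or 3. The ETS1-Low rises of HK1, ENO1, PKM and PDK1 were no larger than the local median of their neighbours.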

How the results depend on the processing

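Of 99 tested results (33 members in 3 comparisons), 68 kept their direction and their side of the threshold in all 19 alternatives. The count of members called higher in ETS1-High against RFP went from 11 to 7 on log2(FPKM + 1) with no filter. That of members changed at least 2-fold in ETS1-Low against RFP went from 3 to 1 on log2(FPKM + 1), with and without the filter. SLC16A3 (1.84 FPKM in RFP) and PFKP (52.1 FPKM in RFP) fell below 2-fold there. This scale understates changes of low genes, which PFKP was not, and the cause was not tested. TPI1 in ETS1-Low against RFP reversed to -0.053 and ENO2 to -0.14 (no longer called and newly called, respectively; with and without the filter) on log2(FPKM + 1) and to -0.053 and -0.14 on log2(FPKM + 0.1). Over all genes tested, higher genes made up 51.2% of the calls in ETS1-Low against RFP and 49.8% in ETS1-High against RFP, and 36.8% and 38.4% on log2(FPKM + 1) with no filter. With single libraries left out, members called higher and lower numbered 15 to 17 and 8 to 11 in ETS1-Low against RFP, 11 to 11 and 15 to 17 in ETS1-High against RFP, and 6 to 7 and 19 to 21 in ETS1-High against ETS1-Low. Same-numbered libraries of different groups correlated in their deviations at r of -0.093 to 0.11 and others at -0.14 to 0.093. Of 9 libraries, 4 correlated best with their own number. No pairing by number was seen, but values this close to each other cannot exclude it. With the replicate number as a block, members called lower in ETS1-High against ETS1-Low went from 20 to 21 (PFKFB4, -0.21), and it changed no other call of a member. Depth limits CA9, at no more than 3 counts in any library.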
